A study of Canis lupus with 23 samples.

Results

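Hemangiosarcoma is a malignant tumor of the cells that line blood vessels, and in dogs the spleen is one of its usual sites. One tumor of this kind, from 1 dog, was set beside the 4 sarcomas of a panel of 23 canine tumors, each from a different pet dog and read on 1 array, so 5 of the 23 tumors enter the main comparison. The tumor was chosen by its title, HSA, and the 4 sarcomas by theirs, 2 being titled STS, for soft tissue sarcoma (STS 0 and STS 1), and 2 being titled Sarcoma (Sarcoma 0 and Sarcoma 1). The sample labels give a diagnosis and no site for any of the 5 tumors, and a splenic origin of the hemangiosarcoma is given in the key of a figure of the study. All 5 were bulk biopsies from untreated pet dogs with naturally arising cancer, accepted by the study only where a pathologist found most nuclei to be those of tumor cells, and no normal spleen, normal vessel or other hemangiosarcoma is among the samples used here. The 4 sarcomas share no stated cell of origin, and which kind of sarcoma each tumor was is not given in the labels.

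Endothelial cells are recognized by the receptors through which they sense vascular endothelial growth factor (VEGF) and the angiopoietins, by the adhesion molecules of their junctions and by the clotting proteins that they store. The red pulp of the spleen is built of blood-filled sinusoids and of macrophages that take up aged red cells and return their iron to the blood, and in dogs the spleen also stores blood and can form new blood cells. Soft tissue sarcomas are tumors of connective tissue and often carry the collagens and proteoglycans of fibroblasts.

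Levels are given as log2(signal + 16), where the signal is the MAS5 intensity of the array, averaged over the probesets of a gene, and the values of the 4 sarcomas are always in the order STS 0, STS 1, Sarcoma 0 and Sarcoma 1. A gene was called above the sarcoma range where its level in the hemangiosarcoma was at least 1 log2 unit higher than in the highest of the 4 sarcomas, and below it where it was at least 1 log2 unit lower than in the lowest. A gene called neither way can still lie beyond the 4 sarcomas by less than 1 log2 unit. With 1 hemangiosarcoma there is no replicate and no test, and each difference describes these tumors. Levels of different genes come from different probes and are not set against each other.

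The array of the hemangiosarcoma was like those of the sarcomas in its general measures. Its median signal was 121, against 97.9 to 131 in the sarcomas, and 22% of its probesets lay under a signal of 16, against 19.8% to 23.9%. The 3' over 5' difference of the actin control probesets, a sign of RNA integrity and of the priming used, was 7.03 log2 units, within the 6.11 to 8.16 of the sarcomas.

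Of 15115 genes, 530 were called above the sarcoma range in the hemangiosarcoma (3.51%) and 432 below it (2.86%). The median difference between the hemangiosarcoma and the mean of the 4 sarcomas over all genes was -0.0050 log2 units, so the differences between tumors are centred near 0. By any margin, the hemangiosarcoma was higher than all 4 sarcomas for 20.6% of the genes and lower than all 4 for 19.9%. Of the 530 genes, 106 lay 2 log2 units or more above every sarcoma and 34 lay 3 or more above. Of the 432 genes, 82 lay 2 log2 units or more below every sarcoma and 21 lay 3 or more below. The shares of 3.51% above and 2.86% below are the background for the list counts that follow. Against fewer sarcomas the counts can only grow. Over all genes, those above became 884 without Sarcoma 0, 777 without STS 1, 710 without Sarcoma 1 and 1538 against the STS tumors alone. Those below became 629 without Sarcoma 1.

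The receptors for VEGF and the angiopoietins were higher in the hemangiosarcoma than in the sarcomas. Of the 7, 5 were above the range (71.4%, against 3.51% of all genes) and 0 below. KDR, the main signaling receptor for VEGF on endothelial cells, had a level of 13.49 in the hemangiosarcoma against 9.44, 10.34, 10.13 and 8.56 in the sarcomas. FLT1, the other blood-vessel receptor for VEGF, had 11.47 in the hemangiosarcoma against 7.56, 9.50, 9.43 and 6.03 in the sarcomas. TIE1, the orphan partner of the angiopoietin receptor, had 10.29 in the hemangiosarcoma against 5.75, 5.97, 7.12 and 5.68 in the sarcomas. As the call requires, no sarcoma overlapped the hemangiosarcoma in any of the 3 genes. The nearest sarcoma lay 3.15 log2 units below the hemangiosarcoma for KDR, 1.97 for FLT1 and 3.17 for TIE1. For KDR the hemangiosarcoma was 3.87 log2 units above the sarcoma mean of 9.62 ± 0.80 (SD, n = 4), and the closest of the other 22 tumors, a transitional cell carcinoma (TCC), stood at 11.11. In a bulk biopsy, more cells of a type and more RNA per cell cannot be told apart, and RNA of the tumor's own cells and of normal vessels in the tissue cannot be told apart either.

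FLT4, the receptor for the lymphatic growth factors VEGFC and VEGFD, was 7.47, with the sarcomas at 6.14, 5.93, 6.29 and 5.71. Its gap to the highest sarcoma, 1.18 log2 units, was the smallest of the 3 VEGF receptors, and its probesets did not behave alike. Of its 3 probesets, 1 lay at least 1 log2 unit above the sarcomas and another lay within their range, with gaps to the highest sarcoma between -0.73 and 1.76. By its brightest probeset alone FLT4 was not above the range. KDR is read by 1 probeset, and all 3 probesets of FLT1 lay above the range. NRP1, a co-receptor for VEGF, was 11.33 in the hemangiosarcoma and 9.14, 10.12, 9.77 and 9.59 in the sarcomas. TEK, the angiopoietin receptor itself, was 7.18 against 6.53, 4.18, 4.43 and 6.20 in the sarcomas, higher than every sarcoma by less than 1 log2 unit. NRP2, the second neuropilin, was 9.46, with the sarcomas at 9.67, 7.43, 8.07 and 7.18, inside the range. Over the 7 receptors the median difference was 1.84 from the sarcoma mean. In 6 of the 7 the hemangiosarcoma was also the highest of all 23 tumors, against 4.66% of all genes.

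Of the 9 measured ligand genes, 1 was above the range and 1 below, with a median difference of 0.032. ANGPT2, the angiopoietin that endothelial cells make and store, was 11.84 in the hemangiosarcoma and 9.49, 10.08, 9.59 and 9.0 in the sarcomas, above each sarcoma. VEGFA was 8.70 against 8.40, 9.19, 9.42 and 7.65 in the sarcomas, in the middle of the sarcomas. PGF, placental growth factor, was 4.48, with the sarcomas at 6.55, 6.80, 7.25 and 5.83, under every sarcoma. VEGFD was near the bottom of the scale in the hemangiosarcoma at 4.30 and split the sarcomas, with 4.58, 12.59, 4.20 and 11.41, so that STS 1 and Sarcoma 1 stood far above the others. VEGFC was 10.40 in the hemangiosarcoma and 8.12, 8.66, 10.76 and 10.41 in the sarcomas, inside the range.

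Surface and junction molecules of endothelial cells made up a second group. PECAM1, the CD31 antigen that pathologists stain to recognize vascular tumors, was 13.44 against 10.15, 10.52, 11.11 and 9.49 in the sarcomas. CD93, a surface lectin of endothelial cells, was 11.78, with the sarcomas at 8.62, 9.28, 8.46 and 7.43. EMCN, the sialomucin endomucin, was 11.17 in the hemangiosarcoma and 8.39, 8.10, 8.27 and 6.52 in the sarcomas, and ICAM2, an adhesion molecule of resting endothelium, 11.62 against 7.09, 7.71, 8.96 and 7.98 in the sarcomas. The 4 sarcomas lay at least 2.33 log2 units under the hemangiosarcoma in each of these genes, and all 4 probesets of PECAM1 lay above the range. ICAM2 was also high in the lymphomas, at 10.37 to 11.66, and a melanoma reached 11.76 for EMCN. The hemangiosarcoma was the highest of the 23 tumors for PECAM1 and CD93. For PECAM1 the hemangiosarcoma was 3.12 log2 units above the sarcoma mean of 10.32 ± 0.68 (SD, n = 4). RAMP2, which with its partner receptor binds adrenomedullin, was 11.90, with the sarcomas at 7.14, 7.88, 9.15 and 9.68. TM4SF1, CLEC14A, ADGRF5, ECSCR and PTPRB were above the range as well, by 1.73 to 1.96 log2 units for the first 3. Of the 26 measured genes of the list, 10 were above the range (38.5%, against 3.51% of all genes) and 1 below, with a median difference of 1.78.

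The gene below the range was CD34, a sialomucin of endothelial cells and blood progenitors that is also carried by some fibroblast-like cells. Its level was 8.16 in the hemangiosarcoma and 12.15, 11.41, 9.67 and 11.35 in the sarcomas. Every sarcoma was higher, and both probesets of the gene lay below the sarcoma range. The hemangiosarcoma stood 10th from the top among the 23 tumors for CD34, and first or second for the other 9 defining endothelial markers. CDH5, the cadherin of endothelial junctions, was 7.56 against 5.75, 7.26, 6.40 and 6.27 in the sarcomas, which put the hemangiosarcoma first of the 23 but 0.30 log2 units above STS 1 only. Its 4 probesets disagreed. One of them read 13.50 against at most 11.82 in the sarcomas, and the other 3 lay inside the range or less than 1 log2 unit above it. CLDN5, a claudin of endothelial tight junctions, was 5.57, with the sarcomas at 4.41, 5.58, 4.87 and 4.21, level with STS 1.

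Among secreted and cytoplasmic endothelial genes, 16 of 35 were above the range (45.7%, against 3.51% of all genes) and 0 below, with a median difference of 1.69. LDB2, a LIM-domain binding cofactor, was 11.89 in the hemangiosarcoma and 7.48, 8.06, 7.77 and 6.50 in the sarcomas. NOSTRIN, which traffics the endothelial nitric oxide synthase, was 10.57 against 7.37, 6.32, 7.08 and 5.60 in the sarcomas. MYCT1 was 11.75, with the sarcomas at 7.98, 7.86, 8.99 and 6.95. The closest of the other 22 tumors stood at 8.16 for LDB2, 7.54 for NOSTRIN and 9.72 for MYCT1, so these 3 genes set the hemangiosarcoma apart from the whole panel and not from the sarcomas alone. NOS3, the nitric oxide synthase itself, was 7.95 in the hemangiosarcoma and 6.15, 5.60, 5.67 and 5.92 in the sarcomas, with 1 of its 2 probesets at least 1 log2 unit above the range. GJA5, a connexin of arterial endothelium, was 9.78 against 6.30, 6.90, 6.48 and 5.59 in the sarcomas. ESM1, a proteoglycan released by sprouting endothelium, was 10.58, with the sarcomas at 6.70, 6.69, 8.34 and 7.02. SELE, the adhesion molecule of activated endothelium, EDN1, which encodes endothelin, and ECE1, which cuts the endothelin precursor, were above the range too, as were EGFL7, RASIP1, CYYR1, PALMD and SHANK3.

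The genes of both proteins of the factor VIII complex, which endothelial cells make, were above the sarcomas. F8, coagulation factor VIII, was 8.29 in the hemangiosarcoma and 4.27, 6.01, 4.21 and 4.20 in the sarcomas, and in 3 of the sarcomas it lay near the bottom of the scale. VWF, von Willebrand factor, was 11.74 against 9.54, 9.95, 10.49 and 9.14 in the sarcomas, 1.25 log2 units above Sarcoma 0. For VWF the gap to the rest of the panel was small, since a lymphoma reached 11.56. THBD, thrombomodulin, was 7.29, with the sarcomas at 7.09, 6.60, 5.63 and 4.29, 0.20 log2 units above STS 0. F8 and VWF were the only 2 of 14 measured coagulation and fibrinolysis genes above the range, and 0 were below.

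Among endothelial transcription factors, 2 of 21 measured genes were above the range (9.52%, against 3.51% of all genes) and 0 below, with a median difference of 0.89. Without Sarcoma 0, 4 were above, while over all 15115 genes the count rose from 530 to 884. EPAS1, the hypoxia-inducible factor typical of endothelium, was 10.61 in the hemangiosarcoma and 7.92, 8.68, 9.04 and 7.32 in the sarcomas. LMO2, a cofactor shared by endothelial and blood progenitors, was 12.86 against 10.70, 9.34, 11.15 and 11.62 in the sarcomas, above the range as an average and not by its brightest probeset alone. ERG, the ETS factor used to recognize vascular tumors, was 6.19, with the sarcomas at 5.29, 5.50, 5.33 and 5.30. The hemangiosarcoma was higher than all 4 sarcomas for ERG, by 0.69 log2 units at the nearest, and its 4 probesets ranged from -1.85 to 2.33 relative to the highest sarcoma. A lymphoma reached 8.15, above the hemangiosarcoma.

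Genes of sinusoidal endothelium, the lining of the blood spaces of spleen and liver, had a median difference of 1.95. They were above the range in 6 of 11 measured cases (54.5%, against 3.51% of all genes) and below in 0. LYVE1, a hyaluronan receptor of sinusoids and lymphatic vessels, was 13.41 in the hemangiosarcoma and 10.26, 8.00, 9.43 and 10.54 in the sarcomas. DNASE1L3, a secreted nuclease, was 11.86 against 7.05, 6.87, 8.10 and 8.49 in the sarcomas. The lymphomas had 10.49 to 12.86 for DNASE1L3, and the hemangiosarcoma was 5th from the top of the 23 tumors. FCN2, a ficolin of the lectin complement pathway, was 8.07, with the sarcomas at 4.34, 4.95, 5.18 and 5.89. The 4 sarcomas lay at least 2.18 log2 units under the hemangiosarcoma in these 3 genes. CD36, a scavenger receptor shared with macrophages and fat cells, and OIT3 completed the group with F8. MRC1, the mannose receptor of sinusoids and macrophages, was not above the range, at 10.32 in the hemangiosarcoma and 11.66, 9.54, 12.08 and 11.71 in the sarcomas.

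The 5 lymphatic genes gave no single direction. PROX1, the transcription factor of lymphatic identity, was 8.49 against 6.20, 7.14, 6.96 and 4.50 in the sarcomas, above each sarcoma. PDPN, podoplanin, which lymphatic endothelium shares with fibroblasts, was 6.46, with the sarcomas at 12.75, 10.25, 11.96 and 11.93, under each sarcoma, and all 4 of its probesets lay below the range. LYVE1 was above the range as given. The other two, CCL21 and RELN, were within it.

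**Figure D1:**
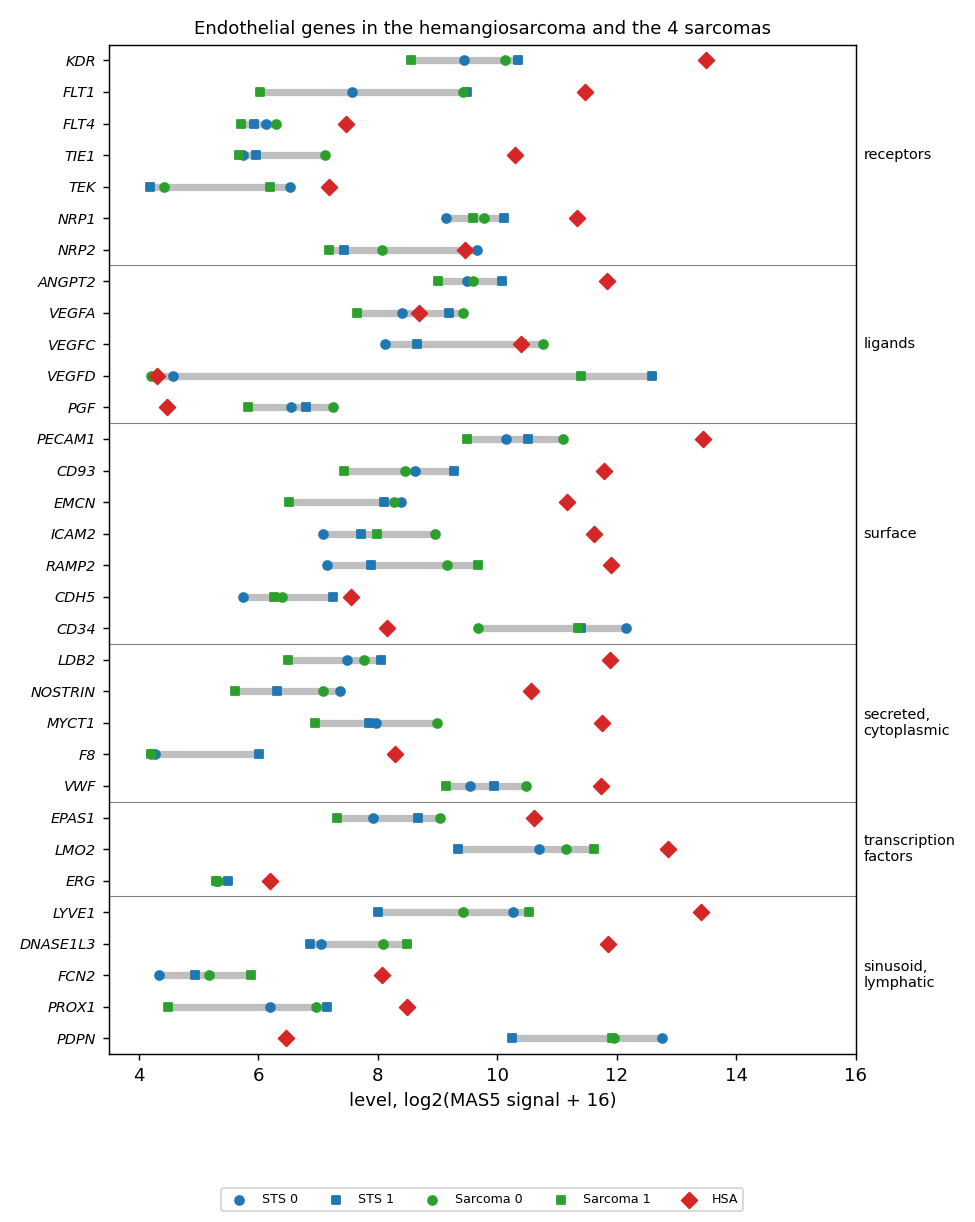
Level of endothelial genes, as log2(MAS5 signal + 16) on the horizontal axis, in the hemangiosarcoma (red diamond) and in the 4 sarcomas (blue for STS, green for Sarcoma), with a grey bar over the range of the sarcomas. The diamond stands to the right of the bar for KDR (13.49), PECAM1 (13.44) and LDB2 (11.89), inside it for VEGFA and NRP2, and to the left of it for CD34 (8.16), PDPN (6.46) and PGF (4.48).

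Taking the 7 vessel lists together, 40 of 112 measured genes were above the sarcoma range (35.7%, against 3.51% of all genes), 3 were below it and the median difference was 1.47. The hemangiosarcoma was the highest of all 23 tumors for 48 of the 112. Of the 10 defining endothelial markers, KDR, FLT1, FLT4, PECAM1, VWF and TIE1 were above the range, CD34 was below, and CDH5, TEK and ERG were higher than every sarcoma by less than 1 log2 unit. By direction alone, 9 of the 10 markers were thus higher in the hemangiosarcoma than in every sarcoma, against 20.6% of all genes, and CD34 was lower.

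Some genes of the spleen and of blood cells were above the range too, most of them in the red pulp macrophage list (13 of 21) and the erythroid list (7 of 25). Over 8 lists, 31 of 139 measured genes were above the range (22.3%, against 3.51% of all genes). Below it were 2 (1.44%, against 2.86% of all genes), and the median difference was 1.22. The vessel lists and the spleen and blood lists share 8 measured genes, among them VWF, LMO2 and CD34, and without the shared genes the counts were 38 of 104 for the vessel lists and 29 of 131 for the spleen and blood lists. Macrophages, blood cells and sinusoids of the spleen can share a biopsy with the tumor, and their part in the vessel genes was not tested. The mean level of the red pulp macrophage list was 11.17 in the hemangiosarcoma and 7.48 to 9.55 in the sarcomas, that of the erythroid list 7.62 and 5.91 to 6.50, and that of the vessel lists 8.60 and 6.94 to 7.66.

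Macrophages of the red pulp gave the largest share of any list of blood or spleen genes. Of the 21, 13 were above the range (61.9%, against 3.51% of all genes) and 0 below, with a median difference of 2.48. SPIC, the transcription factor that red pulp macrophages need, was 12.32 in the hemangiosarcoma and 4.25, 4.26, 7.32 and 7.14 in the sarcomas. MARCO, a scavenger receptor of splenic macrophages, was 11.77 against 7.61, 4.40, 4.56 and 6.90 in the sarcomas. SLC40A1, ferroportin, which exports iron recovered from red cells, was 12.76, with the sarcomas at 9.46, 8.38, 8.61 and 9.16. The hemangiosarcoma was 5.0, 4.16 and 3.30 log2 units above the highest sarcoma for these genes, and it was the highest of the 23 tumors for all 3. For SPIC the sarcoma mean was 5.74 ± 1.72 (SD, n = 4), with both STS tumors near the bottom of the scale and both Sarcoma tumors above them. CD5L, a secreted scavenger protein of tissue macrophages, was 12.21 in the hemangiosarcoma and 5.59, 5.12, 5.57 and 10.82 in the sarcomas, with Sarcoma 1 close below and the other 3 sarcomas near the bottom of the scale. HMOX1, the heme-degrading oxygenase, was 9.57 against 6.06, 7.69, 7.71 and 6.88 in the sarcomas.

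More general macrophage genes were in part above the range as well. CD163, the hemoglobin scavenger receptor, was 10.05, with the sarcomas at 8.38, 6.51, 8.00 and 8.74. VCAM1, an adhesion molecule of red pulp macrophages and of activated endothelium, was 13.60 in the hemangiosarcoma and 10.40, 9.39, 12.17 and 11.85 in the sarcomas. The 3 chains of complement C1q were above the range by 1.22 to 1.61 log2 units, and AIF1, SIGLEC1 and MERTK by 1.12 to 1.81. CD68, a lysosomal marker of macrophages at large, was 7.59 against 6.62, 6.14, 8.32 and 7.56 in the sarcomas, inside the sarcoma range, and CSF1R, their growth factor receptor, was 11.84, with the sarcomas at 9.90, 9.52, 11.38 and 10.61, less than 1 log2 unit above Sarcoma 0. All 4 defining markers of red pulp macrophages were above the range.

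Genes of maturing red cells formed a smaller group. Of 25 measured genes, 7 were above the range (28%, against 3.51% of all genes) and 1 below, with a median difference of 0.93. ALAS2, the red cell enzyme that starts heme synthesis, was 11.18 in the hemangiosarcoma and 7.38, 6.50, 7.40 and 6.37 in the sarcomas, and no other tumor of the 23 exceeded 7.41. The difference for ALAS2 was 4.26 log2 units from the sarcoma mean of 6.91 ± 0.55 (SD, n = 4). EPB42, a protein of the red cell membrane skeleton, was 9.48 against 5.99, 6.40, 7.10 and 4.29 in the sarcomas. HEMGN, hemogen, a nuclear protein of developing red cells, was 9.11, with the sarcomas at 4.18, 6.29, 5.43 and 6.39. RHAG, which carries the Rh antigens, was 7.66 in the hemangiosarcoma and 4.33, 4.26, 4.24 and 4.89 in the sarcomas, with 3 of the sarcomas near the bottom of the scale. CA1 and CA2, the carbonic anhydrases of red cells, were 3.28 and 3.74 log2 units above the highest sarcoma, and RHCE was above the range too. The hemangiosarcoma was highest of the 23 for all 7 genes above the range. Its lead was small for CA1, at 8.70 against 8.61 in a TCC, and for CA2, at 9.29 against 9.10 in a lymphoma. SLC4A1, the anion exchanger of the red cell membrane, was 7.22 against 4.36, 7.08, 4.28 and 5.54 in the sarcomas, level with STS 1. KLF1, the erythroid transcription factor, was 4.43, with the sarcomas at 6.14, 6.22, 5.61 and 5.75, under all 4 sarcomas. The adult globins were not used here. Of the 3 defining erythroid markers measured, ALAS2 was thus above the range, KLF1 below it and SLC4A1 neither.

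Granulocyte genes were above the range in 4 of 17 measured cases (23.5%, against 3.51% of all genes) and below in 0. They were above it in 8 of 17 without Sarcoma 0 and in 9 of 17 against the STS tumors alone. Over all 15115 genes the count rose from 530 to 884 and to 1538 in these 2 settings. CAMP, the cathelicidin stored in granules, was 10.59 in the hemangiosarcoma and 5.40, 5.35, 7.14 and 5.13 in the sarcomas. CTSG, cathepsin G, was 8.18 against 5.68, 6.37, 4.23 and 5.69 in the sarcomas. MPO, myeloperoxidase, was 8.79, with the sarcomas at 4.61, 6.52, 5.89 and 6.94, and MMP8, the neutrophil collagenase, 8.13 in the hemangiosarcoma and 4.54, 7.01, 5.57 and 4.79 in the sarcomas. Each of the 4 stood above every sarcoma, as the call requires. ELANE, neutrophil elastase, was 4.34 against 6.02, 5.03, 4.35 and 6.91 in the sarcomas, at the lowest of the 5 tumors. S100A8, a calcium-binding protein of mature neutrophils, was 12.37, with the sarcomas at 7.57, 8.09, 12.42 and 8.73, level with Sarcoma 0. Among the other 22 tumors the highest level of each of the 4 genes above the range was that of the same lymphoma, Lymphoma 1.

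Few platelet, progenitor and lymphocyte genes were above or below the range of all 4 sarcomas. Their counts grew with fewer sarcomas, which can only add genes. Over all 15115 genes, 530 were above the range (3.51%), 710 without Sarcoma 1, 884 without Sarcoma 0 and 1538 against the STS tumors alone. Of 19 platelet and megakaryocyte genes, 2 were above, GP9 and VWF, and 0 below, with 4 above without Sarcoma 1. GP9, a chain of the platelet receptor for von Willebrand factor, was 7.41 in the hemangiosarcoma and 4.41, 6.17, 4.95 and 5.06 in the sarcomas, while ITGA2B, the platelet integrin, was 6.91 against 5.05, 6.90, 5.88 and 5.39 in the sarcomas. Of 14 progenitor genes, KIT and LMO2 were above and CD34 was below, with 4 above without Sarcoma 0. KIT, the stem cell factor receptor, which mast cells also carry, was 10.39, with the sarcomas at 5.39, 7.66, 7.54 and 6.10. In the B cell list 0 of 14 genes were above and 0 below, and in the T and NK cell list 2 of 19 were above, EOMES and PRF1. Without Sarcoma 1, 7 of the 19 T and NK cell genes were above, and against the STS tumors alone 14 were. Of the 14 B cell genes, 3 were above without Sarcoma 0 and 5 against the STS tumors alone. CD3D, a chain of the T cell receptor complex, was 9.46 in the hemangiosarcoma and 4.23, 5.18, 9.43 and 9.73 in the sarcomas, so the hemangiosarcoma stood with Sarcoma 0 and Sarcoma 1 and far above both STS tumors. MS4A1, the B cell antigen CD20, was 8.35 against 4.65, 5.09, 8.12 and 6.83 in the sarcomas. For both genes the sarcomas differed among themselves by more than 3 log2 units. Against the STS tumors alone, CD3D, CD3E, CD3G and MS4A1 were above the range, and against the Sarcoma tumors alone they were not.

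Of 11 measured genes in the list of transcription factors that lay down the spleen, 1 was above the range and 0 below. TLX1, which the spleen needs to form, was 5.79, with the sarcomas at 4.48, 6.03, 4.84 and 4.19, inside the sarcoma range. NKX2-5, another early factor, was 5.58 in the hemangiosarcoma and 4.48, 4.59, 5.07 and 4.23 in the sarcomas. TCF21, a factor of spleen and other visceral mesenchyme, was 7.77 against 4.27, 4.93, 4.16 and 6.04 in the sarcomas, above each sarcoma and the highest of the 23 tumors. WT1, which marks spleen mesenchyme and mesothelium, was 7.77, with the sarcomas at 5.43, 7.18, 6.12 and 4.28, less than 1 log2 unit above STS 1. Neither measured defining marker of spleen mesenchyme, TLX1 or NKX2-5, was above the range at these settings, but with a pseudocount of 1 NKX2-5 was 1.10 log2 units above the highest sarcoma, and by its brightest probeset TLX1 was just over 1 log2 unit above it. No statement on the site of origin rests on these genes.

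**Figure D2:**
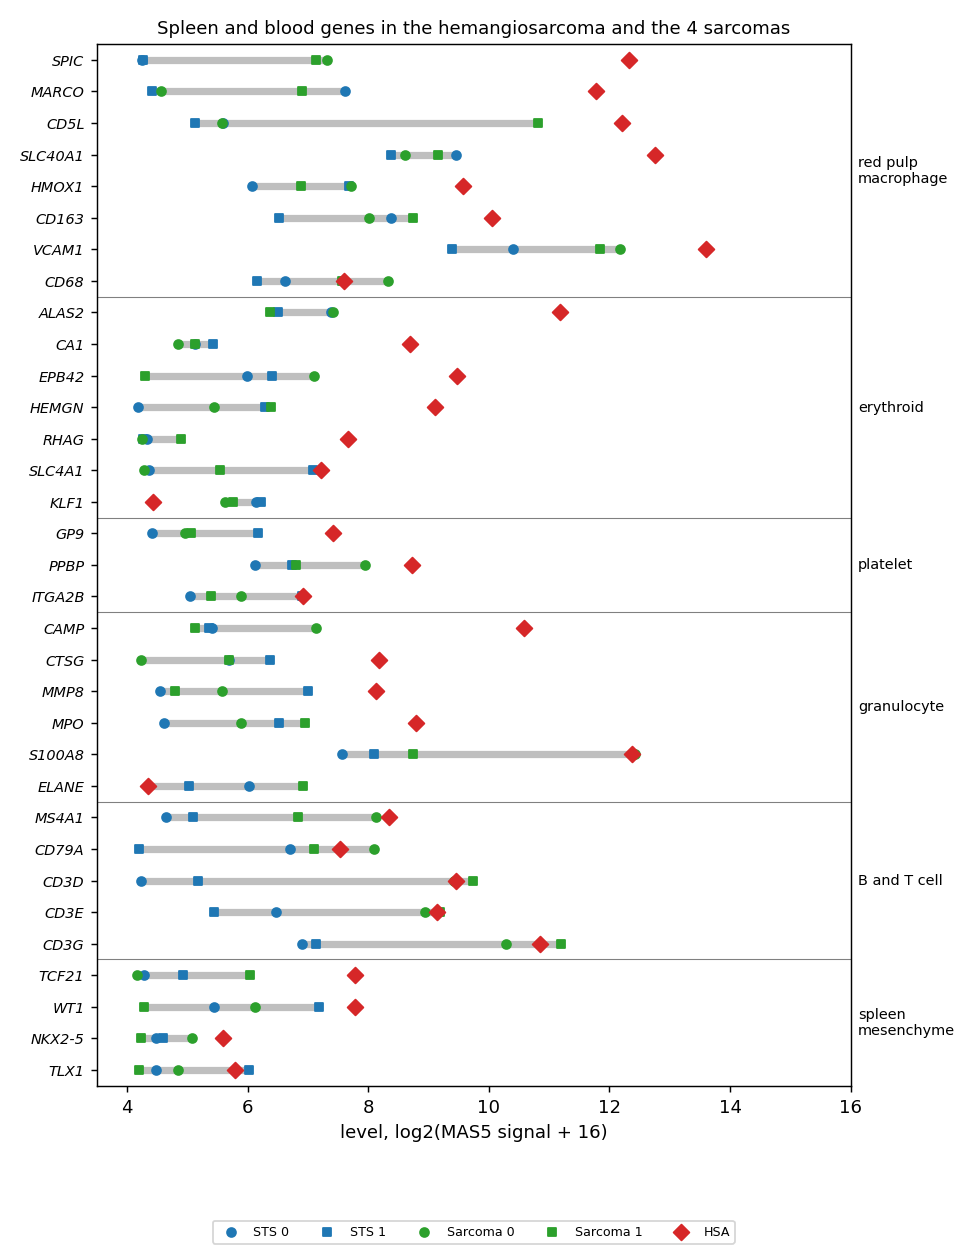
Level of spleen and blood genes, as log2(MAS5 signal + 16) on the horizontal axis, in the hemangiosarcoma (red diamond) and in the 4 sarcomas (blue for STS, green for Sarcoma), with a grey bar over the range of the sarcomas. The diamond stands far to the right of the bar for SPIC (12.32), MARCO (11.77) and ALAS2 (11.18), inside it for CD68 and CD3D, and to the left of it for KLF1 (4.43).

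Against these, the matrix genes of connective tissue were lower in the hemangiosarcoma. Of 38 measured matrix and fibroblast genes, 17 were below the range (44.7%, against 2.86% of all genes), 0 were above and the median difference was -2.28. POSTN, periostin, was 7.33 in the hemangiosarcoma and 14.23, 14.23, 12.83 and 12.00 in the sarcomas. COL6A3, a chain of collagen VI, was 7.42 against 12.51, 13.19, 11.90 and 12.05 in the sarcomas. DCN, the proteoglycan decorin, was 9.93, with the sarcomas at 15.01, 14.36, 14.61 and 14.98. For these 3 genes the lowest sarcoma was separated from the hemangiosarcoma by differences of -4.67, -4.48 and -4.43 log2 units. For POSTN the hemangiosarcoma was the lowest of all 23 tumors. COL1A1, the main chain of collagen I, was 9.61 in the hemangiosarcoma and 14.83, 14.78, 14.13 and 12.59 in the sarcomas. COL1A2, its partner chain, was 9.47 against 14.03, 13.91, 12.82 and 12.31 in the sarcomas. PRRX1, a transcription factor of connective tissue cells, was 6.30, with the sarcomas at 12.49, 10.78, 11.48 and 12.27. FAP, the fibroblast activation protease, was 8.40 in the hemangiosarcoma and 13.50, 10.37, 12.34 and 13.09 in the sarcomas. No sarcoma overlapped the hemangiosarcoma in these 4 genes, as the call requires. COL3A1, COL5A2, COL6A1, FBLN1, FBLN2, FBN1, LOX, LUM, MFAP5 and MMP2 made up the rest of the 17.

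Some fibroblast genes were not lower. PDGFRA, the growth factor receptor of fibroblasts, was 11.52 against 10.58, 11.30, 11.44 and 11.51 in the sarcomas, at the top of the sarcomas. TIMP3, an inhibitor of matrix proteases, was 12.83, with the sarcomas at 9.13, 12.94, 10.70 and 11.48, level with STS 1. Of the 4 defining fibroblast markers, the 3 collagens were below the range and PDGFRA was neither above nor below.

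Of 13 measured basement membrane genes, 0 were above the range and 2 below, with 5 below without Sarcoma 1. Over all 15115 genes the count below rose from 432 to 629 without Sarcoma 1. LAMA4, a laminin chain of vessel walls, was 8.46 in the hemangiosarcoma and 12.35, 11.61, 11.99 and 10.50 in the sarcomas, the lowest of all 23 tumors. NID2, a nidogen that links laminin to collagen IV, was 7.76 against 12.86, 9.82, 10.01 and 8.93 in the sarcomas. COL4A1, the main basement membrane collagen, was 11.80, with the sarcomas at 12.60, 12.78, 11.60 and 9.99, inside the range, and HSPG2, perlecan, was 9.43 in the hemangiosarcoma and 7.07, 8.02, 8.84 and 5.93 in the sarcomas, less than 1 log2 unit above it. LAMA1, a laminin chain outside the list, was 10.15 against 4.28, 6.24, 4.46 and 5.45 in the sarcomas, above the range with all 3 of its probesets. The difference for LAMA1 was 5.05 log2 units from the sarcoma mean of 5.11 ± 0.91 (SD, n = 4).

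Of 18 smooth muscle and pericyte genes, 3 contractile genes were above the range and 1 pericyte gene below, with a median difference of 0.86. Without STS 1 or without Sarcoma 0, 5 were above. Over all 15115 genes the count rose from 530 to 777 and to 884 in these settings. MYH11, the smooth muscle myosin, was 13.04, with the sarcomas at 7.29, 8.51, 9.92 and 7.05, and the next of the 23 tumors, a TCC, stood at 10.76. The sarcoma mean of MYH11 was 8.19 ± 1.32 (SD, n = 4). CNN1, calponin, was 9.64 in the hemangiosarcoma and 5.13, 4.91, 7.83 and 6.41 in the sarcomas. DES, desmin, was 8.84 against 6.45, 5.87, 5.91 and 5.91 in the sarcomas, while the histiocytic sarcoma reached 9.86. ACTA2, the smooth muscle actin, was 12.67, with the sarcomas at 9.80, 12.26, 11.32 and 8.63, less than 1 log2 unit above STS 1. RGS5, a marker of pericytes, went the other way. Its level was 4.76 in the hemangiosarcoma and 9.54, 9.99, 8.30 and 7.33 in the sarcomas, the lowest of all 23 tumors, with 2 of its 3 probesets at least 1 log2 unit below the sarcomas. The capsule and trabeculae of the canine spleen hold smooth muscle, and the part of such tissue in these values was not tested.

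**Figure D3:**
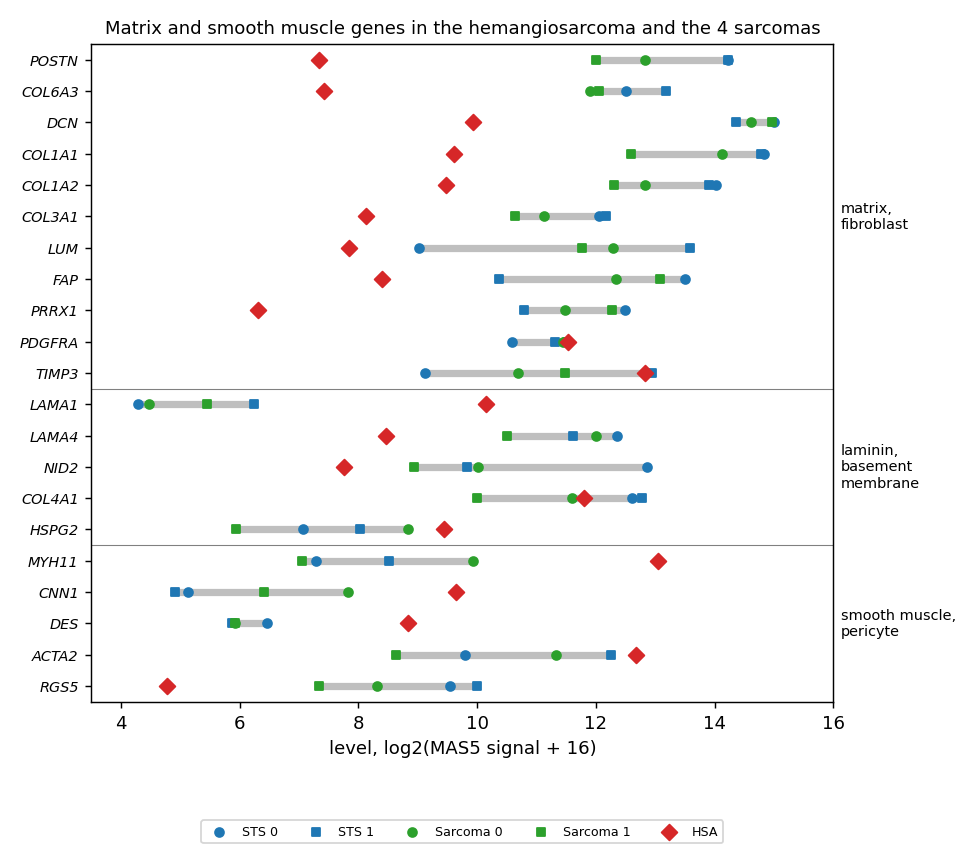
Level of matrix, basement membrane and smooth muscle genes, as log2(MAS5 signal + 16) on the horizontal axis, in the hemangiosarcoma (red diamond) and in the 4 sarcomas (blue for STS, green for Sarcoma), with a grey bar over the range of the sarcomas. The diamond stands to the left of the bar for POSTN (7.33), DCN (9.93) and RGS5 (4.76), inside it for TIMP3, and to the right of it for MYH11 (13.04) and LAMA1 (10.15).

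Over the 7 mesenchymal lists together, 24 of 116 measured genes were below the range (20.7%, against 2.86% of all genes). Above it were 6 (5.17%, near the 3.51% of all genes), and the median difference was -0.39. ERBB3 and PMP22, genes of nerve sheath cells, differed by -1.37 and -1.09 log2 units from the lowest sarcoma, SPP1, osteopontin, by -1.67, and GPAM, an enzyme of fat synthesis, by -1.50. CHRNA1, a subunit of the muscle acetylcholine receptor, and MYF6, a myogenic transcription factor, were above it by 1.46 and 2.25 log2 units, and the other 13 measured skeletal muscle genes were not.

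Among the 20 genes furthest above the sarcomas, 2 carry locus numbers as symbols and are not named. The furthest was PLAC8A, at 13.17 against 6.41, 6.17, 6.83 and 4.29 in the sarcomas. MCTP2, a calcium-binding membrane protein, was 11.77, with the sarcomas at 4.37, 5.05, 6.72 and 7.06, and GDPD2, a glycerophosphodiester phosphodiesterase, 10.48 in the hemangiosarcoma and 4.47, 5.07, 5.85 and 5.20 in the sarcomas. The 4 probesets of GDPD2 lay 0.07 to 8.14 log2 units above the highest sarcoma. NPY1R, a receptor for neuropeptide Y, was 10.51 against 6.36, 4.40, 6.24 and 4.26 in the sarcomas. STAR, the protein that brings cholesterol into mitochondria for steroid synthesis, was 10.05, with the sarcomas at 4.76, 6.41, 5.14 and 4.83, with the nearest of the other 22 tumors at 6.41. CA8, a carbonic anhydrase-related protein, GTSF1, CLEC4F, a C-type lectin, DAPL1 and SORBS2, an adaptor of the actin cytoskeleton, were 3.38 to 3.56 log2 units above the highest sarcoma. Some of these genes were as high in other tumors of the panel. MCTP2 was 11.76 in Lymphoma 1, GDPD2 10.06 in a TCC, and CA8 10.51 in the nasal tumor against 10.90. DAPL1 was 8.85 in a lymphoma against 9.22, and GTSF1 11.16 in a lymphoma against 9.03. For NPY1R and CLEC4F the next tumor stood at 7.11 and 6.20. MARCO, SPIC, ALAS2, CA2, CAMP, LDB2, LAMA1 and DNASE1L3, given above, completed the 20.

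Among the 20 genes furthest below, 7 belong to the matrix list or the lymphatic list: POSTN, COL6A1, COL6A3, DCN, FBLN1, PRRX1 and PDPN. BICC1, an RNA-binding protein, was 4.20 in the hemangiosarcoma and 11.22, 10.70, 9.99 and 9.84 in the sarcomas. PPL, periplakin, a linker of cell junctions to keratin filaments, was 4.25 against 10.40, 9.44, 9.62 and 9.42 in the sarcomas. TNFAIP6, a hyaluronan-binding protein induced by inflammation, was 4.24, with the sarcomas at 11.34, 9.97, 7.46 and 11.87. HAS2, an enzyme that makes hyaluronan, was 4.10 in the hemangiosarcoma and 8.05, 8.48, 7.38 and 9.54 in the sarcomas. In all 4 genes the hemangiosarcoma was at or near the bottom of the scale and was the lowest of the 23 tumors. CPXM1, MXRA5, GALNT5, OLFML1, CDON, HTRA1, MEDAG, GLT8D2 and FKBP14 made up the rest, with differences of -4.73 to -3.25 from the lowest sarcoma.

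In the whole panel, 254 of the 530 genes above the sarcoma range had their highest level of all 23 tumors in the hemangiosarcoma, and 85 were at least 1 log2 unit above every other tumor. Over all genes the hemangiosarcoma was highest for 4.66%. The 530 were chosen for high values in it, so nothing is read from that difference either. In 209 of the 530 a lymphoma came first among the other 22 tumors, of which 7 are lymphomas. Of the 432 genes below the range, 111 were lowest of all 23 in the hemangiosarcoma. Over all genes it was lowest for 3.29%, but these genes were chosen for low values in it, so nothing is read from the difference. The 8 genes furthest above all of the other 22 tumors were ALAS2, LDB2, STAR, NPY1R, SPIC, COCH, NOSTRIN and CCL14, with gaps of 2.96 to 3.76 log2 units. COCH, an extracellular protein known from the inner ear and from follicles of lymphoid tissue, was 14.18 against 7.07, 8.75, 10.01 and 11.10 in the sarcomas. CCL14, a chemokine, was 13.38, with the sarcomas at 10.29, 8.36, 9.71 and 9.29. Members of the vessel lists (LDB2, NOSTRIN), the red pulp list (SPIC) and the erythroid list (ALAS2) are among these 8.

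The mean level of the vessel lists, 8.60 in the hemangiosarcoma, was 6.58 to 7.47 in the 18 tumors that were neither it nor a sarcoma. For the red pulp macrophage list these values were 11.17 and 7.24 to 10.03, and for the erythroid list 7.62 and 6.04 to 6.58. The hemangiosarcoma was the highest of 23 in each of these 3. For the matrix list it ranked 15th.

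**Figure D4:**
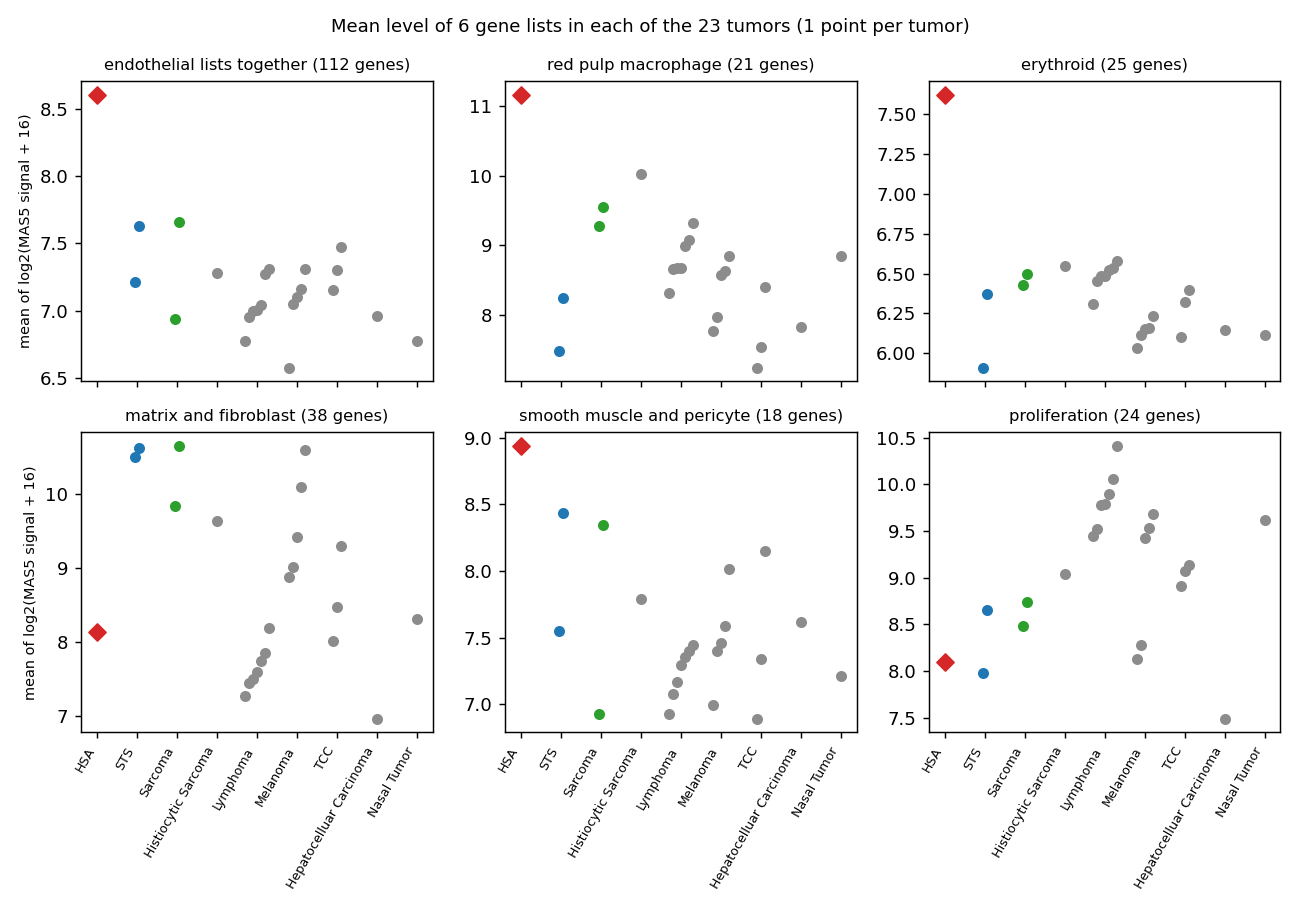
Mean of log2(MAS5 signal + 16) over the measured genes of 6 gene sets, 1 point for each of the 23 tumors, by diagnosis as the labels spell it (TCC is transitional cell carcinoma). The hemangiosarcoma (red diamond) is the highest of 23 for the vessel lists (8.60), the red pulp macrophage list (11.2), the erythroid list (7.62) and the smooth muscle list (8.94), and stands under all 4 sarcomas for the matrix list (8.13).

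The panel's histiocytic sarcoma, a cancer that arises from dendritic cells or macrophages, was set against the same 4 sarcomas by the same rule, which called 461 genes above their range (3.05%) and 379 below (2.51%). Of the 112 vessel genes, 6 were above the range in the histiocytic sarcoma and 40 in the hemangiosarcoma. Of the 21 red pulp macrophage genes, 6 were above it in the histiocytic sarcoma and 13 in the hemangiosarcoma. SPIC was 4.16 in the histiocytic sarcoma, near the bottom of the scale, and CD68 was 9.68, above the 7.59 of the hemangiosarcoma. Both comparisons rest on the same sarcomas and on 1 tumor each, and the difference between them was not tested.

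Genes of cell division were lower in the hemangiosarcoma than in all 4 sarcomas in 12 of 24 cases, against 19.9% of all genes, though 0 were below the range by 1 log2 unit. One proliferation gene, E2F1, was above the range, 5 were above the sarcoma mean, and the median difference was -0.52. The mean level of the list was 8.10 in the hemangiosarcoma and 7.97, 8.65, 8.48 and 8.74 in the sarcomas. By this mean the hemangiosarcoma was inside the sarcoma range, above STS 0, and 21st from the top among the 23 tumors. TOP2A, the topoisomerase of dividing cells, was 10.94 in the hemangiosarcoma and 10.19, 12.20, 10.86 and 11.70 in the sarcomas. TYMS, thymidylate synthase, was 8.88 against 10.26, 10.79, 9.41 and 10.75 in the sarcomas, and PCNA, the sliding clamp of DNA replication, was 9.55, with the sarcomas at 10.84, 10.79, 10.09 and 11.31, both the lowest of the 23 tumors though less than 1 log2 unit under the sarcomas. Of 22 hypoxia and glycolysis genes, 0 were above and 2 below, LOX and ANGPTL4. LOX, which cross-links collagen, was 5.47 in the hemangiosarcoma and 10.62, 7.33, 9.37 and 8.88 in the sarcomas.

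Inflammatory mediators were above the range in 4 of 19 cases (21.1%, against 3.51% of all genes). IL1A, interleukin 1 alpha, was 11.85 against 8.75, 8.55, 7.78 and 7.36 in the sarcomas. IL18 was 12.01, with the sarcomas at 7.30, 7.07, 9.77 and 10.63, and IL6 and CCL3 were above the range by 1.54 and 1.05 log2 units. ACKR3, a scavenging receptor for CXCL12, was 12.75 in the hemangiosarcoma and 12.11, 8.60, 8.63 and 7.97 in the sarcomas, close to STS 0 and far above the other sarcomas. Of the 10 class II antigen presentation genes, 0 were above or below the range of all 4 sarcomas, with a median difference of 1.37 that fell to 0.88 without STS 0. This list split the sarcomas, with 10 of 10 genes above both STS tumors by at least 1 log2 unit (median difference 2.85) and 0 above the Sarcoma tumors (median difference 0.011).

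Of the 8 measured genes known to be mutated in canine hemangiosarcoma or human angiosarcoma, 0 were above or below the range. PIK3R1, a regulatory subunit of a growth-signaling lipid kinase, was 10.52 against 10.72, 10.86, 10.68 and 11.82 in the sarcomas, under all 4 sarcomas by less than 1 log2 unit. PIK3CA, the catalytic subunit of that kinase, was 10.52, with the sarcomas at 9.06, 11.45, 9.81 and 10.94, and NRAS was 10.34 in the hemangiosarcoma and 10.56, 10.03, 11.08 and 10.49 in the sarcomas. Of 16 receptor tyrosine kinases that drugs target, 4 were above the range, KDR, FLT1, FLT4 and KIT, and 0 were below. Without Sarcoma 0, 7 were above, while over all 15115 genes the count rose from 530 to 884. RNA levels alone were measured, with no mutation or protein.

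As a check on other tissue, 0 of 11 hepatocyte genes were above or below the range, and ALB, albumin, was 5.56 against 4.76, 4.20, 4.87 and 4.79 in the sarcomas, less than 1 log2 unit above every sarcoma, while the hepatocellular carcinoma reached 10.68. Of 12 epithelial and mesothelial genes, CDH1, the epithelial cadherin, was above the range at 9.99, with the sarcomas at 6.02, 7.87, 7.80 and 8.35 and KRT8, a keratin, was below it at 4.15 in the hemangiosarcoma and 7.63, 6.51, 7.55 and 5.72 in the sarcomas. EPCAM was 5.55 against 5.22, 4.35, 9.82 and 4.25 in the sarcomas. Epithelial tumors reached 13.14 for CDH1 and 14.27 for EPCAM.

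**Figure D5:**
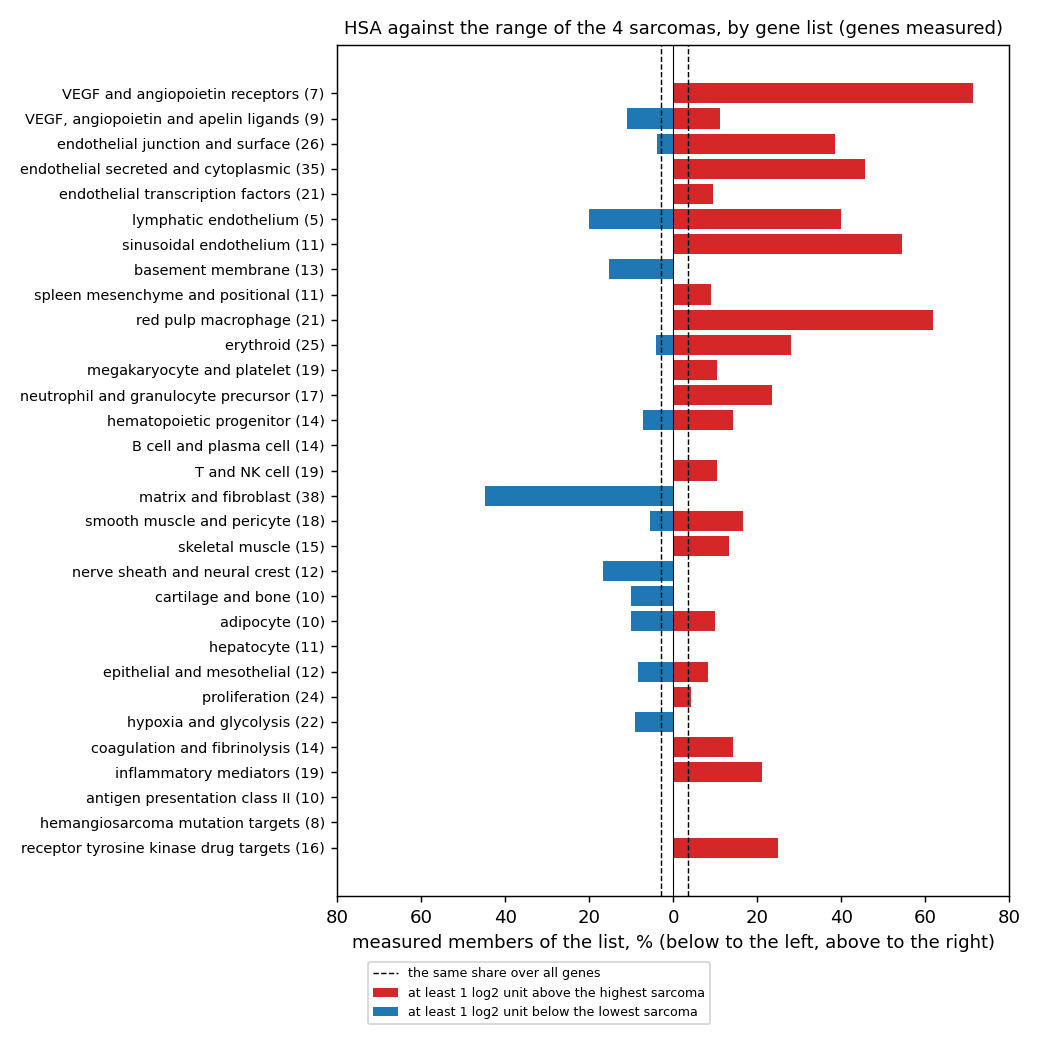
Share of the measured members of each of 31 gene lists (number in brackets) that lay at least 1 log2 unit above the highest sarcoma (red, to the right) or below the lowest (blue, to the left) in the hemangiosarcoma; the dashed lines give the share over all genes, 3.51% above and 2.86% below. The receptor list (71.4%), the red pulp macrophage list (61.9%) and the sinusoidal list (54.5%) reach furthest to the right, and the matrix list (44.7%) furthest to the left.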

How the data were processed

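Bulk RNA of 23 canine tumors was amplified, labeled and hybridized to Affymetrix Canine Genome 2.0 arrays by the authors, 1 array a tumor. The deposited values are MAS5 intensity values on a linear scale, which the authors scaled to the same trimmed mean on every array, and the depth of an array is limited by its signal over background.

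Probesets with exactly 1 gene symbol in the platform annotation (29254 of 42924 that are no controls) were transformed as log2(signal + 16) and averaged per symbol, which gave 15115 genes with no low-signal filter. Symbols are those of the annotation, and 0 of its Entrez identifiers matched the reference table. The hemangiosarcoma was set against the range of the 4 sarcomas with no test, and 31 gene lists (573 genes, 477 measured) were described by counts and medians. The members and lists were chosen with earlier results of these data known. Named were KDR, FLT1 and FLT4, the 20 genes furthest above and below the range, the list members beyond the range (or, in lists with fewer than 4, those of highest signal up to 4) and the 8 genes furthest above the other 22 tumors. The other genes named, none of them above or below the range, were chosen after their values were seen. Alternatives were the pseudocount, quantile normalization, 1 probeset a gene, a low-signal filter, the distance, the set of sarcomas and leaving each sarcoma out. Python 3.11.15, pandas 2.3.3, numpy 2.4.6 and matplotlib 3.10.9 were used. The calculation of the calls was checked on simulated data with large added shifts, which does not measure how reliable the calls are here.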

Additional observations from a re-analysis of the deposited data

Results flagged for a closer look

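In 12 of 215 genes and list levels, 1 of the 4 sarcomas stood far from the other 3, with a gap to its nearest neighbor, divided by the range of the 4, above Dixon's critical value for groups of 4. Chance alone gives such a gap in about 1 in 20 groups, and no explanation was tested.

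Among the vessel, macrophage and blood genes, the sarcoma that stood apart was a Sarcoma tumor for some and an STS tumor for others. CD5L was 10.82 in Sarcoma 1 and 5.12 to 5.59 in the other 3 sarcomas, a gap of 0.917 of the range, with the hemangiosarcoma at 12.21. For RHAG, Sarcoma 1 stood at 4.89 and the other 3 sarcomas at 4.24 to 4.33 (gap 0.855 of the range), and the hemangiosarcoma at 7.66. CAMP was 7.14 in Sarcoma 0 and 5.13 to 5.40 in the other 3 sarcomas, a gap of 0.864 of the range, with the hemangiosarcoma at 10.59. For F8, STS 1 stood at 6.01 and the other 3 sarcomas at 4.20 to 4.27 (gap 0.963 of the range), and the hemangiosarcoma at 8.29. EMCN was 6.52 in Sarcoma 1 and 8.10 to 8.39 in the other 3 sarcomas, a gap of 0.843 of the range, with the hemangiosarcoma at 11.17. For MRC1, STS 1 stood at 9.54 and the other 3 sarcomas at 11.66 to 12.08 (gap 0.836 of the range), and the hemangiosarcoma at 10.32. MERTK was 6.14 in STS 0 and 7.10 to 7.29 in the other 3 sarcomas, a gap of 0.8294 of the range, with the hemangiosarcoma at 8.76.

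The other 5 genes belong to other lists. DES was 6.45 in STS 0 and 5.87 to 5.91 in the other 3 sarcomas, a gap of 0.925 of the range, with the hemangiosarcoma at 8.84. For ACKR3, STS 0 stood at 12.11 and the other 3 sarcomas at 7.97 to 8.63 (gap 0.839 of the range), and the hemangiosarcoma at 12.75. E2F1 was 4.77 in STS 0 and 4.20 to 4.28 in the other 3 sarcomas, a gap of 0.851 of the range, with the hemangiosarcoma at 6.30. For PIK3R1, Sarcoma 1 stood at 11.82 and the other 3 sarcomas at 10.68 to 10.86 (gap 0.836 of the range), and the hemangiosarcoma at 10.52. ALB was 4.20 in STS 1 and 4.76 to 4.87 in the other 3 sarcomas, a gap of 0.835 of the range, with the hemangiosarcoma at 5.56.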

How the results depend on the processing

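The 530 genes above and 432 below the sarcoma range became 702 and 777 with a pseudocount of 1 and 287 and 152 with a pseudocount of 64, so the split between the directions turned with the pseudocount of 1. Against the STS tumors alone the counts were 1538 and 1013, against the Sarcoma tumors alone 1078 and 1091, at 2 log2 units 106 and 82, and at 1 log2 unit from the sarcoma mean 2049 and 1764. Leaving out 1 sarcoma can only add genes, and gave 667 to 884 above, the highest without Sarcoma 0, and 606 to 656 below, the highest without STS 0. The 40 vessel genes above the range became 16 at 2 log2 units and 69 from the mean. The 31 spleen and blood genes above it became 71 against the STS tumors alone, 11 at 2 log2 units and 77 from the mean. The 24 mesenchymal genes below it became 15 at 2 log2 units and 45 from the mean. The other planned settings kept each of these list counts within 1.5 times. Counting only genes whose every probeset lay beyond the range, chosen after seeing the data, gave 416 above and 323 below in all, 29 vessel, 27 spleen and blood and 20 mesenchymal genes.

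The alternatives were followed gene by gene for 184 genes, which include some not named here. ECE1, CYYR1, PALMD, SHANK3, COL5A2, FBLN2 and MMP2, named above as beyond the range, are not among them. Of the 184, 129 were above or below the range. For these, leaving sarcomas out cannot change the sign of the difference, so only the settings that kept all 4 sarcomas could. In those settings 0 of 516 differences changed sign. In the 55 that were neither, 18 of 550 differences changed sign, 16 of them when sarcomas were left out. The 18 lay in CD3D, CD68, CD79A, COL4A1, EPCAM, JCHAIN, LYZ, NRAS, PIK3CA, TOP2A, VEGFA and VEGFC. FLT4 was no longer above the range with a pseudocount of 64 or with its brightest probeset alone, and LMO2 was not above it with its brightest probeset. Of the genes followed, those also no longer beyond the range at a pseudocount of 64 were GP9, MMP8, OIT3, ECSCR, E2F1, EOMES, PRF1, RHCE, CCL3, PGF, KLF1, KRT8, ERBB3, PMP22 and ANGPTL4. KLF1 and OIT3 were not beyond it after quantile normalization. The low-signal filter removed KLF1, E2F1, MYF6, PRF1 and RHCE, because none of the 5 tumors was above the median of all gene values, 7.03, for them. With the brightest probeset CDH5, TLX1 and WT1 were above it and PMP22 was not below it, and with a pseudocount of 1 NKX2-5 was above it. No paired analysis was possible because the hemangiosarcoma is 1 tumor and no test was run. With 1 tumor, nothing here can be carried to hemangiosarcomas at large, and low signals, where MAS5 values scatter most, limit the low genes.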
